A study of Mus musculus with 50 samples.

Results

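The protocadherins were taken as all gene symbols starting with Pcdh in the table of read counts from immunoprecipitated and input RNA, with 1 symbol left out, which gave 69 of the 24552 genes listed. They were 14 genes of the alpha cluster, 21 of the beta cluster, 22 of the gamma cluster and 12 non-clustered genes. Protocadherins are cell surface proteins of the cadherin superfamily. The 3 clusters lie side by side on mouse chromosome 18 and each variable exon has its own promoter. A neuron switches on a small set of them, a choice that involves the insulator protein CTCF and the cohesin ring, and the resulting mix gives the cell a surface identity. Neurites that carry matching sets recognise one another, and in several cell types this recognition makes branches of the same cell avoid each other. Alpha and gamma variable exons are spliced to constant exons that all genes of the cluster share, whereas each beta gene encodes its protein in 1 exon. The C-type genes (Pcdhac1, Pcdhac2, Pcdhgc3, Pcdhgc4 and Pcdhgc5) sit at the ends of the alpha and gamma clusters and are used more deterministically. The non-clustered protocadherins are separate genes with their own roles in axon growth, synapse maintenance and sensory organs.

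The samples came from the nucleus accumbens, the part of the ventral striatum where medium spiny neurons (MSNs) express either the dopamine receptor D1 or D2. RiboTag mice, which make an HA-tagged ribosomal protein Rpl22 after Cre acts, carried the D1-Cre BAC transgene FK150 or the D2-Cre BAC transgene ER44, so that pulling down HA (IP) collected ribosome-bound RNA of the Cre-expressing cells and the input held RNA of the whole punch. By the labels, C57BL/6 mice of 8 to 12 weeks were defeated by an aggressor in daily bouts of 10 min, over at most 10 days, and were sorted into susceptible (Sus) and resilient (Res) animals, beside undefeated controls (Con), and each sample pooled 2 mice. The study's methods name the C57BL/6J substrain for the Cre lines and state a shorter daily bout. The comparisons used 13 IP libraries of the D1 line (4 Con, 4 Res, 5 Sus) and 15 of the D2 line (5 in each stress group), 18 inputs (3 in each line and stress group) and, in a table of its own, 4 IP libraries labelled D1 Con with a Sirt1 knockout (KO), from male control mice that carry floxed Sirt1, D1-Cre and RiboTag. No age was available for the mice of the Sirt1-KO libraries. Reads on genes ranged from 18384265 to 31009626 per library over the 46 libraries of the main table, and from 22174187 to 31785984 in those labelled Sirt1-KO. P-values measure the spread between pooled samples of 2 mice. The D1 and D2 marker lists separated the lines, with all 6 D1 markers higher and all 6 D2 markers lower in D1 IP than in D2 IP (adjusted p under 0.05), although the 6 D2 markers were also higher in D1 Con IP than in D1 Con input, by a median log2 fold change of 0.63.

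Most of the family was detected in this tissue. Of the 69 genes, 64 had reads in all 46 libraries, and the same number passed the filter on low counts and was tested in every model. Pcdha4, Pcdha6 and Pcdha7 had 0 reads in all 46 libraries, a limit of 3 counts or 0.0999 to 0.155 CPM, counts per 1e+06 gene reads after TMM scaling, which covers counting error only. The limit holds only if reads of these genes could be assigned to them, which was not tested. The nearby Pcdha3, Pcdha5 and Pcdha9 had 2803, 4858 and 4613 reads summed over the 46 libraries. Pcdha8 had 0 to 15 counts and Pcdh12, known from endothelial cells, had 0 to 11 counts, with no read in 13 of the 46 libraries, and neither was tested. In GRCm38 coordinates the annotated alpha genes spanned chromosome 18 from 36930184 to 37187661, the beta genes from 37294812 to 37524479 and the gamma genes from 37661793 to 37841873, all on the plus strand. Reads in the shared constant exons belong to several alpha or gamma genes at once, so the counts of these genes come mainly from their variable exons if such reads were set aside, and the counting mode was not stated.

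Levels differed widely within each class. Between genes they are compared as mean CPM per kilobase of exon that no other listed gene shares. In D1 and D2 IP the highest alpha gene was Pcdhac2, a C-type gene known for the spacing of serotonergic axons, at 11.8 and 10.8 CPM per kb. Among the beta genes Pcdhb20 led with 8.61 and 9.03 CPM per kb, followed by Pcdhb17 with 7.74 and 8.43, while Pcdhb2 was lowest at 0.49 and 0.50. Among the gamma genes Pcdhgc5, whose product binds GABA-A receptors, led in IP with 23.5 and 25.1 CPM per kb, and Pcdhgb8, a polymorphic pseudogene, was lowest with 0.82 and 1.21. In the inputs the leading gamma gene was instead Pcdhgc3, at 20.4 CPM per kb in the D1 line and 20.0 in the D2 line. Pcdh10, known for its part in striatal axon growth, was the highest non-clustered gene at 24.2 and 25.2 CPM per kb in D1 and D2 IP. Pcdh10 overlaps an antisense transcript by 154 bases and Pcdh7 overlaps another by 2235 bases, and without a stated strand setting reads in those overlaps cannot be assigned.

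Summed over each class, the non-clustered genes held most of the protocadherin reads. Their sum was 1207 ± 46.1 CPM in D1 IP (SD, n = 13), 1210 ± 95.9 in D2 IP (n = 15), 1039 ± 37.8 in D1 input (n = 9) and 1050 ± 79.2 in D2 input (n = 9). The 21 beta genes together came to 243 ± 14.0 CPM in D1 IP, 263 ± 17.7 in D2 IP, 163 ± 9.56 in D1 input and 159 ± 6.10 in D2 input. The 22 gamma genes came to 391 ± 35.6 CPM in D1 IP, 438 ± 43.8 in D2 IP, 401 ± 14.5 in D1 input and 389 ± 18.03 in D2 input, and the 19 gamma A and B genes alone came to 241 ± 24.6, 280 ± 27.9, 223 ± 8.62 and 218 ± 10.5 CPM in the same order, so that in D1 the mean of the whole cluster was lower in IP than in input and that of the A and B genes higher. The alpha genes other than the C-type ones held the fewest reads, at 28.8 ± 3.02, 27.3 ± 3.12, 21.0 ± 3.18 and 21.6 ± 1.90 CPM. These sums are given as a description with no test. They are not corrected for exon length, and reads in the shared alpha and gamma exons may be missing, so they do not rank expression between classes.

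**Figure D1:**
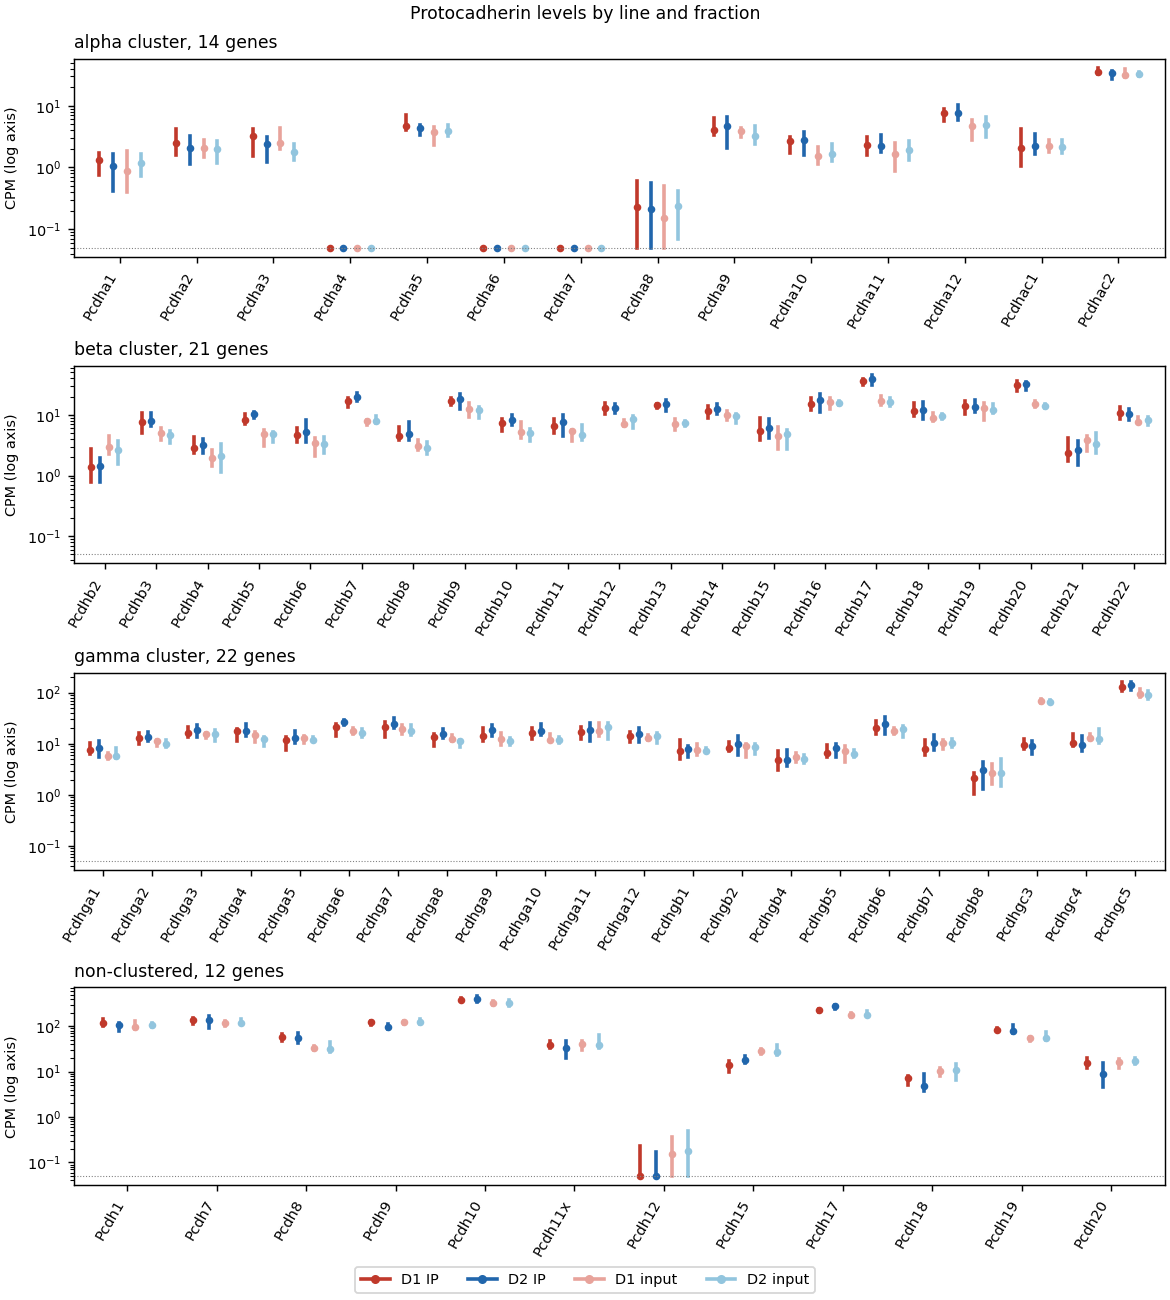
Levels of the 69 protocadherin genes in CPM (log axis) by Cre line and fraction, in panels for the alpha, beta, gamma and non-clustered genes. Points are medians and bars run from the lowest to the highest library of 13 D1 IP, 15 D2 IP, 9 D1 input and 9 D2 input libraries, with values of 0 drawn at the dotted line. Pcdhgc3 is the gamma gene whose IP and input bars lie farthest apart.

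The comparison of IP with input in control mice asked which protocadherin transcripts were enriched on the ribosomes of the tagged neurons. Several beta genes, among them Pcdhb7, Pcdhb17 and Pcdhb20, and Pcdh8 were higher in IP, and Pcdhgc3, Pcdh15 and Pcdh18 were lower. In the D1 line 16 protocadherins passed (11 higher and 5 lower in IP) at a fold change above 1.5 and an adjusted p below 0.05 (quasi-likelihood test of edgeR), where 41.4% of the 14922 genes tested passed. In the D2 line 27 passed (23 higher and 4 lower), against 42.6% of all genes. The share of all genes higher in IP was 14.3% in D1 and 14.7% in D2, and the share lower was 27.1% and 27.9%. At an adjusted p under 0.05 with no limit on fold change, 26 passed in D1 (20 higher) and 40 in D2 (32 higher), beside 70.4% and 71.7% of all genes. By direction, 34.5% of all genes were higher and 35.9% lower in D1 IP at that limit, and 34.5% and 37.2% in D2 IP. With scaling by library size alone, which moved the median of all genes from -0.02 to -0.27 in D1 and from -0.05 to -0.21 in D2, that split in D1 turned to 10 higher and 12 lower, whereas in D2 it was 26 higher and 8 lower.

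Pcdhgc3, a gamma C-type gene whose product binds Axin1 and acts in dendrite branching, was the member with the largest difference between the fractions. Its level in D1 Con IP was 8.70, 8.73, 8.24 and 10.6 CPM, and in D1 Con input 70.0, 74.4 and 67.4 CPM. In D2 Con IP it was 6.45, 9.95, 9.51, 8.84 and 11.0 CPM, and in D2 Con input 70.3, 70.5 and 66.6 CPM. The IP and input libraries of either line did not overlap and lay far apart. The log2 fold change of IP over input was -2.96 (SE 0.117) in D1 and -2.90 (SE 0.110) in D2, with edgeR adjusted p of 1.9e-13 and 7.3e-14. As a share of all gamma reads, which does not depend on scaling between libraries, Pcdhgc3 took 1.78% to 3.25% in the 28 IP libraries (median 2.24%) and 15.1% to 19.2% in the 18 inputs (median 17.6%). The neighbouring C-type gene Pcdhgc4, which is needed for neuronal survival, was lower in IP by -0.37 in D1 (SE 0.095) and -0.40 in D2 (SE 0.092). Pcdhgc5 was higher in IP, with log2 fold changes of 0.30 (SE 0.108, adjusted p 0.018) and 0.62 (SE 0.105, adjusted p 3.5e-05). Its share of gamma reads was 29.1% to 36.0% in IP and 20.1% to 28.1% in input, but once Pcdhgc3 was left out of the total the ranges overlapped, at 29.7% to 36.9% and 24.5% to 33.1%. The alpha C-type genes Pcdhac1 and Pcdhac2 passed the test in neither line.

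Markers of other cell types also differed between IP and input. All 6 astrocyte markers were lower in IP, with a median log2 fold change of -3.21 in D1 and -3.83 in D2, as were all 6 oligodendrocyte markers (-3.09 and -3.31), all 4 markers of oligodendrocyte precursors (-2.67 and -3.01), all 6 of microglia (-4.77 and -4.27) and all 4 of endothelial cells (-3.96 and -3.56). Of 5 GABAergic interneuron markers, 4 were lower in D1 IP and 5 in D2 IP. Of 5 cholinergic markers, 5 were lower in D1 IP, while 3 were higher and 1 lower in D2 IP. Of 5 cortical excitatory markers, 1 was higher in D1 IP and 5 were lower in D2 IP. Over all genes, 34.5% were higher and 35.9% lower in D1 IP at an adjusted p under 0.05, and 34.5% and 37.2% in D2 IP. The part of these markers in the protocadherin differences was not tested. In these bulk samples fewer cells of a type and less RNA per cell cannot be told apart.

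Of the 21 beta genes, 7 were higher and 2 lower in D1 IP past the fold limit, and 13 were higher and 1 lower in D2 IP. Of all genes, 14.3% were higher and 27.1% lower in D1 IP at that limit, and 14.7% and 27.9% in D2 IP. The members with the largest increase in D1 were Pcdhb7, Pcdhb13 and Pcdhb17, at log2 fold changes of 1.25 (SE 0.124), 1.10 (SE 0.113) and 1.02 (SE 0.102). In D2 the largest were Pcdhb7, Pcdhb17 and Pcdhb20, at 1.35 (SE 0.121), 1.30 (SE 0.102) and 1.26 (SE 0.112). Pcdhb17 stood at 39.1, 33.3, 39.1 and 31.2 CPM in D1 Con IP and 20.2, 15.6 and 17.0 CPM in D1 Con input. In D2 it stood at 38.2, 43.3, 36.7, 39.1 and 37.7 CPM in IP and 16.0, 14.9 and 17.0 CPM in input. Every IP library was above every input library for this gene. Pcdhb7 measured 16.7, 18.5, 19.0 and 13.4 CPM in D1 Con IP against 6.74, 7.38 and 7.22 CPM in D1 Con input, again with no overlap. Pcdhb2 went the other way, at 1.11, 1.20, 1.33 and 1.46 CPM in D1 Con IP and 2.91, 2.76 and 3.80 CPM in D1 Con input, a log2 fold change of -1.31 (SE 0.285). In D2 the call on Pcdhb2 (-0.75, SE 0.284) ended without the D2 Con input replicate 1, where it was -0.284 (edgeR adjusted p 0.392). The other beta gene lower in D1, Pcdhb21, had a log2 fold change of -0.66 (SE 0.271, edgeR adjusted p 0.037), kept in 10 of 15 fits without 1 library. Its edgeR adjusted p was 0.0806 in the fit that paired same-numbered IP and input. The median over all 21 beta genes was 0.42 in D1 and 0.76 in D2, and stayed above 0 under library size scaling, at 0.17 and 0.59. Within the beta reads of a library Pcdhb17 took 13.0% to 16.8% in IP and 9.01% to 11.9% in input, and Pcdhb20 took 11.0% to 14.4% and 8.17% to 10.5%.

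Fewer of the gamma A and B genes passed. None of the 19 passed the fold limit in D1 IP, where 41.4% of all genes did. In D2 IP 6 were higher, beside 14.7% of all genes, led by Pcdhga6, Pcdhga9 and Pcdhga4 at log2 fold changes of 0.78, 0.71 and 0.68. At an adjusted p under 0.05 alone, 2 were higher in D1 and 9 in D2, beside 34.5% of all genes in either line. The median of the 19 was 0.05 in D1 and turned to -0.20 under library size scaling, and was 0.47 in D2, where it remained positive at 0.31. Pcdhga6 read 24.5, 17.9, 19.2 and 21.7 CPM in D1 Con IP and 17.3, 17.7 and 15.4 in D1 Con input, and 27.5, 26.1, 26.9, 27.3 and 26.2 CPM in D2 Con IP and 13.5, 16.3 and 17.5 in D2 Con input. In both lines every IP value of Pcdhga6 was above every input value, with a narrow gap in D1 and a wide one in D2. Of the 10 alpha genes tested, Pcdha10 and Pcdha12 passed the fold limit in D1 (1.01 and 0.66) and Pcdha12 in D2 (0.78). The share of all genes that passed it was 41.4% in D1 and 42.6% in D2. Pcdha12 lost its call in D1 in 1 of the 15 fits that left out a library.

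Among the 11 non-clustered genes tested, 2 were higher and 2 lower past the fold limit in each line. Of all genes, 14.3% were higher and 27.1% lower at that limit in D1, and 14.7% and 27.9% in D2. Pcdh8 (arcadlin), an activity-regulated protocadherin that drives N-cadherin endocytosis, was at 46.6, 58.8, 62.8 and 57.9 CPM in D1 Con IP and 32.8, 33.8 and 33.7 in D1 Con input. Its log2 fold change was 0.76 in both lines (SE 0.109 in D1 and 0.106 in D2), and in the Con groups no IP library overlapped an input library. Pcdh19, a gene of female-limited epilepsy, was higher in IP by 0.62 (SE 0.081) in D1 and 0.45 (SE 0.079) in D2, the former alone past the fold limit. Pcdh17, which acts in the synapses of corticobasal ganglia circuits, was higher by 0.35 (SE 0.073) in D1 and by 0.60 (SE 0.071) in D2. Pcdh10 was 0.19 in D1 (adjusted p 0.021) and 0.30 in D2, but its D1 value turned to -0.0548 under library size scaling. Pcdh15, a component of hair cell tip links that oligodendrocyte precursors also express, was at 9.99, 12.0, 15.7 and 13.8 CPM in D1 Con IP and 27.4, 28.9 and 28.9 in D1 Con input. It was lower in IP by -1.14 (SE 0.120) in D1 and -0.58 (SE 0.115) in D2. Pcdh18 was lower by -0.70 (SE 0.188) and -1.21 (SE 0.182). Pcdh20 differed by -0.91 (SE 0.227) in D2 and by -0.02 in D1, Pcdh9 by -0.37 in D2 and -0.01 in D1, and Pcdh11x, the X-linked member, by -0.36 in D2 and -0.10 in D1, with the D2 value of each past an adjusted p of 0.05. Pcdh1 and Pcdh7 passed in neither line. The median of the 11 tested non-clustered genes was 0.09 in D1 and 0.03 in D2, and turned to -0.15 and -0.14 under library size scaling.

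**Figure D2:**
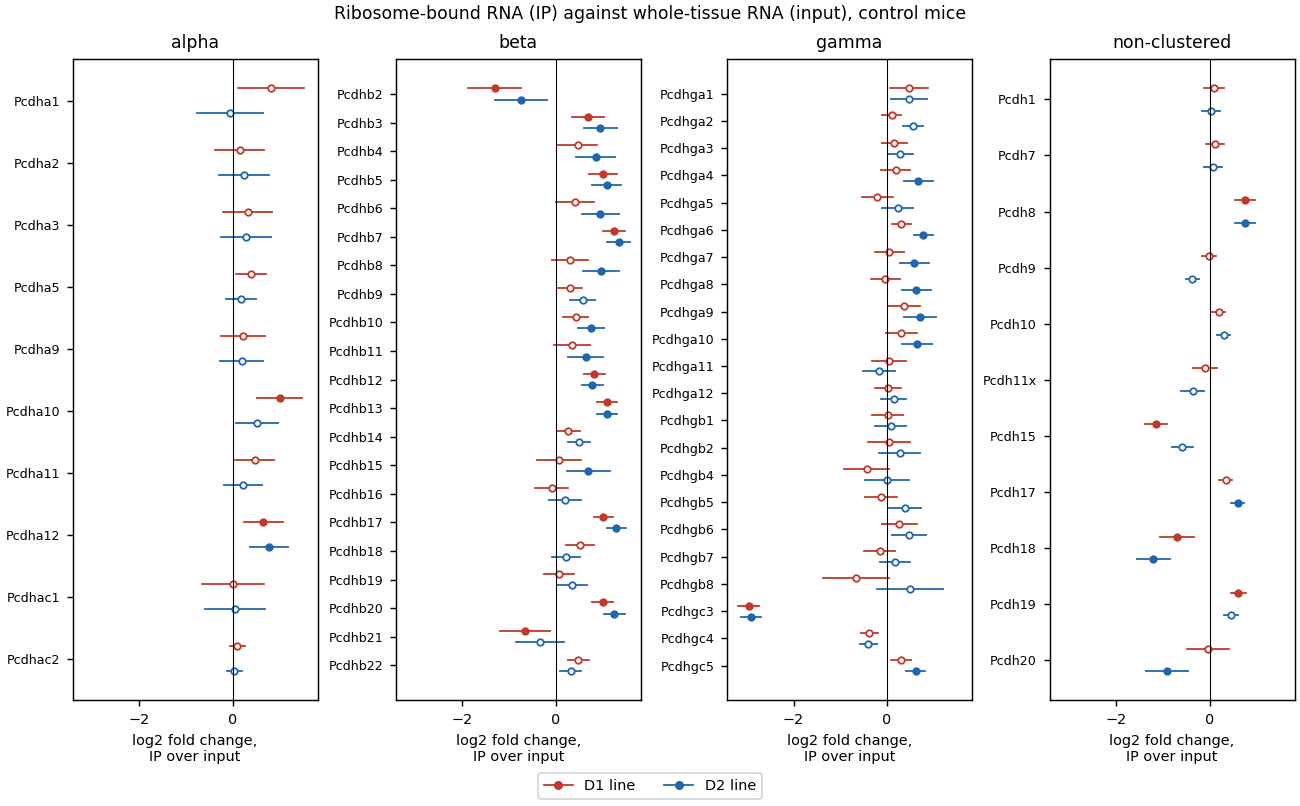
Log2 fold change of IP over input in control mice for the protocadherins tested, with D1 and D2 side by side. Lines are 95% intervals and filled points passed a fold change of 1.5 with an adjusted p under 0.05 (edgeR). Pcdhgc3 lies at -2.96 and -2.90, the leading beta genes lie above 1, and the gamma A and B median of 0.05 in D1 changes sign under library size scaling.

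The other genes that act with protocadherins were taken from 3 lists and counted at an adjusted p under 0.05, which 70.4% of all genes passed in D1 (34.5% higher and 35.9% lower) and 71.7% in D2 (34.5% higher and 37.2% lower). Of 19 signalling partners, 15 were higher and 1 lower in D1 IP, and 13 were higher and 1 lower in D2 IP, although library size scaling left 5 higher and 3 lower in D1 and 8 higher and 4 lower in D2. Ptk2b (Pyk2), a kinase that protocadherins inhibit, was higher by 1.12 and 1.36 in D1 and D2, whereas Cyfip1, a WAVE complex subunit, was lower by 1.21 in each (log2 fold changes of -1.21). Of 15 regulators of the cluster chromatin, 5 were higher and 6 lower in D1 and 6 and 5 in D2, and library size scaling turned these to 0 and 9 and to 3 and 7. The cohesin loader Nipbl was lower, with -1.18 in D1 and -0.68 in D2. Of 8 large atypical cadherins tested, 1 was higher and 4 lower in either line, with Celsr3 at -1.78 and -1.43.

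D1 and D2 neurons were compared through their IP libraries over all stress groups together. Only Pcdh20 passed the fold limit, higher in D1, where 7.66% of the 14224 genes tested passed. At an adjusted p under 0.05, 28 of the 64 members tested differed, 8 higher and 20 lower in D1, beside 40.8% of all genes (19.6% higher and 21.3% lower). Other scalings and filters and a fit with a replicate block gave 23 to 25, with 16 to 18 lower in D1. DESeq2 gave 29, with 21 lower. The members lower in D1 were mostly beta and gamma genes, and the differences were small. All 19 gamma A and B genes had a negative log2 fold change, of which 11 passed, with a median of -0.220, and 20 of 21 beta genes were negative, of which 7 passed, with a median of -0.121. The median of all genes was -0.0157, and the 19 gamma A and B genes were also all negative under RLE size factors, library size scaling and DESeq2. In each of the 3 stress groups 18 of the 19 gamma A and B genes and 12 of the 21 beta genes were negative, as were 36.2% of all genes tested. The comparison over all groups is the mean of these 3, so their signs are part of it and not a separate test. Genes of a class were read in the same libraries and are not replicates of one another. Of the 10 alpha genes tested 3 passed, each higher in D1 (Pcdha3 0.41, Pcdha5 0.19 and Pcdhac2 0.11), and 6 were positive and 4 negative. The alpha share of all clustered reads was 8.18% to 11.4% in D1 IP and 7.62% to 9.04% in D2 IP, with overlapping ranges. The call at an adjusted p under 0.05 was kept in 16 of 28 fits without 1 library for Pcdhac2 and in 10 for Pcdha5.

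Pcdhga6 showed the clearest difference among the gamma A and B genes. Its lowest, median and highest levels were 14.3, 21.7 and 24.7 CPM in D1 IP and 23.0, 26.3 and 29.6 CPM in D2 IP, so the ranges overlapped only at their ends. The log2 fold change was -0.37 (SE 0.066, edgeR adjusted p 4.0e-05). Pcdhgb8 had the largest difference of this class at -0.58 (SE 0.172), just inside the fold limit, which it crossed in 11 of the 28 fits without 1 library. Among the beta genes Pcdhb7 ran from 13.4 through 16.7 to 19.0 CPM in D1 IP and from 17.1 through 19.5 to 22.8 in D2 IP, a log2 fold change of -0.25 (SE 0.048, edgeR adjusted p 0.00014). The C-type gamma genes Pcdhgc3, Pcdhgc4 and Pcdhgc5 did not pass.

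The promoters of Pcdh9, Pcdh20, Pcdh17 and Pcdh15 are shown because these 4 members passed an adjusted p of 0.05 in the pooled comparison and in both the Con and the Res comparison. The Con and Res libraries are part of the pooled comparison, so these are not separate tests. In Sus Pcdh15 did not pass (edgeR adjusted p 0.061). The sequences are the 250 bases before the annotated start, from RefSeq on GRCm38.p6, at chr14:93890680-93890929 (minus strand) for Pcdh9, chr14:88471397-88471646 (minus strand) for Pcdh20, chr14:84443313-84443562 (plus strand) for Pcdh17 and chr10:73821617-73821866 (plus strand) for Pcdh15. The RefSeq start of Pcdh15 lies inside the longer GENCODE gene, and for Pcdh9 the first of 2 listed starts is shown. Capitals mark a match to TATAAA or GGGCGG on either strand.
Pcdh9: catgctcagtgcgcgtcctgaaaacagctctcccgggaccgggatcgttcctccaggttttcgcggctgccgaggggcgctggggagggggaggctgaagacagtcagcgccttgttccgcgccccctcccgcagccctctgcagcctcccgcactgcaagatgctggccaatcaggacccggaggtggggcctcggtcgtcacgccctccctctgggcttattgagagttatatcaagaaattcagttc
Pcdh20: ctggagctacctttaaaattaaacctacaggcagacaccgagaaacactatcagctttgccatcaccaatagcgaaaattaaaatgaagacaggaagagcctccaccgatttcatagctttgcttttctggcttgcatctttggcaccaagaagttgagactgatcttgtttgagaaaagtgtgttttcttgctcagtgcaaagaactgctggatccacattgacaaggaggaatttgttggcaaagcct
Pcdh17: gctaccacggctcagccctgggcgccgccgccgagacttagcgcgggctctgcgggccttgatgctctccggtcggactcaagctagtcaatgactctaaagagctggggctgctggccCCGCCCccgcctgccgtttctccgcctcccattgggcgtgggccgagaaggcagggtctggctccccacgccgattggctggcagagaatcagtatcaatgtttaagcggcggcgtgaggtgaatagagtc
Pcdh15: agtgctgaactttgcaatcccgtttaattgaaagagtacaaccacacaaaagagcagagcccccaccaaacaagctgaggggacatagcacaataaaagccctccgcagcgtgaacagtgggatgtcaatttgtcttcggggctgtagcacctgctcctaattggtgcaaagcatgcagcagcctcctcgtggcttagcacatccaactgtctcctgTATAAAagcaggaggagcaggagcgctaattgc
The Pcdh17 window held 1 GGGCGG on the opposite strand and the Pcdh15 window 1 TATAAA on the strand of the gene, and those of Pcdh9 and Pcdh20 held neither. Among 32851 promoter windows of the same length, 12.4% held TATAAA and 32.7% held GGGCGG on either strand. The windows of Pcdh9 and Pcdh17 were 63.6% and 64.8% GC with 18 and 21 CpG, and those of Pcdh15 and Pcdh20 were 50.4% and 42.4% GC with 6 and 3 CpG.

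Pcdh20 ranged from 11.9 to 20.0 CPM in D1 IP (median 15.8, n = 13) and from 4.59 to 15.9 CPM in D2 IP (median 8.80, n = 15). Most D1 libraries were above most D2 libraries, with some overlap. Its log2 fold change was 0.83 (SE 0.126, edgeR adjusted p 4.7e-06). By stress group it was 0.83 in Con, 1.04 in Res and 0.63 in Sus, the 1 member past the fold limit each time, beside 4.98%, 5.52% and 5.55% of all genes. The Con call ended without D1 Con IP replicate 3 (edgeR adjusted p 0.0612), and the Sus call ended without any 1 of D1 Sus IP replicates 2 and 4 and D2 Sus IP replicates 2, 3 and 4.

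Pcdh9, which is abundant in brain, ranged from 106 to 132 CPM in D1 IP (median 122) and from 86.4 to 112 CPM in D2 IP (median 97.1), a log2 fold change of 0.29 (SE 0.043). Pcdh17 ranged from 212 to 246 CPM in D1 IP (median 231) and from 236 to 293 CPM in D2 IP (median 274), a log2 fold change of -0.26 (SE 0.031, edgeR adjusted p 9.4e-08). Pcdh15 ranged from 9.99 to 17.6 CPM in D1 IP (median 14.3) and from 15.4 to 22.2 CPM in D2 IP (median 18.5), a log2 fold change of -0.41 (SE 0.067). The ranges of the lines overlapped slightly for each of these genes, with Pcdh9 tending higher in D1 and Pcdh17 and Pcdh15 lower. By stress group (Con, Res, Sus) the values were 0.31, 0.23 and 0.33 for Pcdh9, -0.22, -0.27 and -0.29 for Pcdh17 and -0.49, -0.44 and -0.30 for Pcdh15, of which the last did not pass (edgeR adjusted p 0.061). Pcdh9 in Res lost its call in 4 of 28 fits without 1 library. Pcdh11x (0.26, SE 0.088), Pcdh18 (0.32, SE 0.118) and Pcdh1 (0.14, SE 0.055), the last known as a hantavirus receptor, were also higher in D1, though Pcdh1 kept its call in 11 of the 28 fits. Pcdh7, Pcdh8, Pcdh10 and Pcdh19 did not pass.

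Within single stress groups, 6 members passed an adjusted p of 0.05 in Con (14.0% of all genes), 4 in Res (17.5%) and 10 in Sus (17.6%). Pcdhga6 and Pcdhb7 passed in Con and Sus, at -0.38 and -0.47 for Pcdhga6 and -0.29 and -0.24 for Pcdhb7. Pcdhb5, Pcdhb9, Pcdhga9, Pcdhgb7 and Pcdha5 passed in Sus, and Pcdhb5 had a log2 fold change there of -0.43 (SE 0.09). Whether the line difference changed with stress was tested directly by an interaction term, given with the stress comparisons.

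Markers of other cells differed between the D1 and D2 IP libraries. Summed levels of the 6 astrocyte markers were 330 to 555 CPM in D1 IP and 262 to 525 in D2 IP, with all 6 higher in D1, and those of 6 oligodendrocyte markers were 494 to 786 and 403 to 655 CPM, with 4 higher. The 5 cortical excitatory markers summed to 400 to 1423 CPM in D1 IP and 21.8 to 317 in D2 IP, all 5 higher in D1. The 5 cholinergic markers summed to 7.73 to 30.6 and 62.7 to 135 CPM, with 4 lower in D1. Of 6 microglial markers 4 were lower in D1, and of 4 endothelial markers 2. Of the 4 markers of oligodendrocyte precursors 1 was higher, and of 5 GABAergic interneuron markers 2 were higher and 1 lower. Over all genes, 19.6% were higher and 21.3% lower in D1 IP at an adjusted p under 0.05. The part of these markers in the line differences was not tested.

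**Figure D3:**
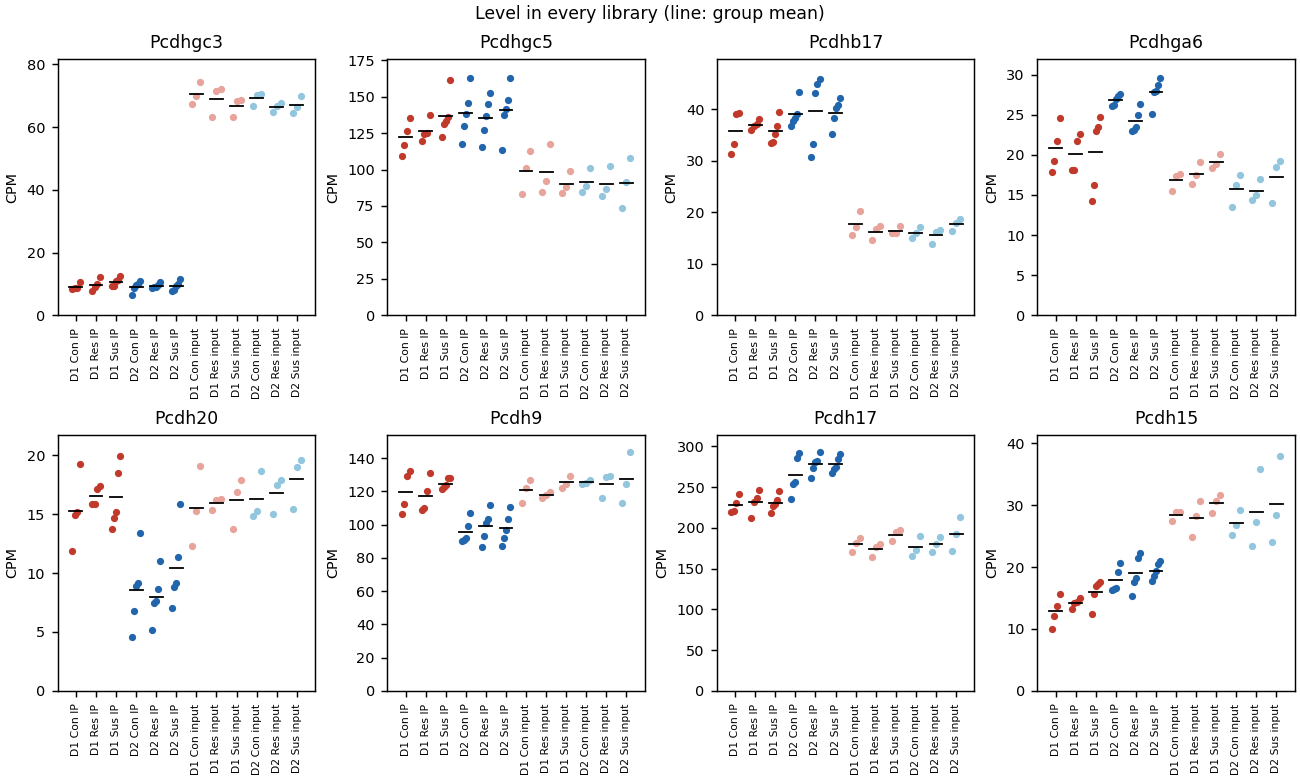
CPM in each library for 8 protocadherins in the 12 groups of line, stress and fraction. Points are libraries, sorted within a group, and lines are group means. Pcdhgc3 is at 6.45 to 11.0 CPM in the Con IP libraries of both lines and at 66.6 to 74.4 CPM in the Con inputs, and Pcdh20 runs from 11.9 to 20.0 CPM in D1 IP and from 4.59 to 15.9 CPM in D2 IP.

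**Figure D4:**
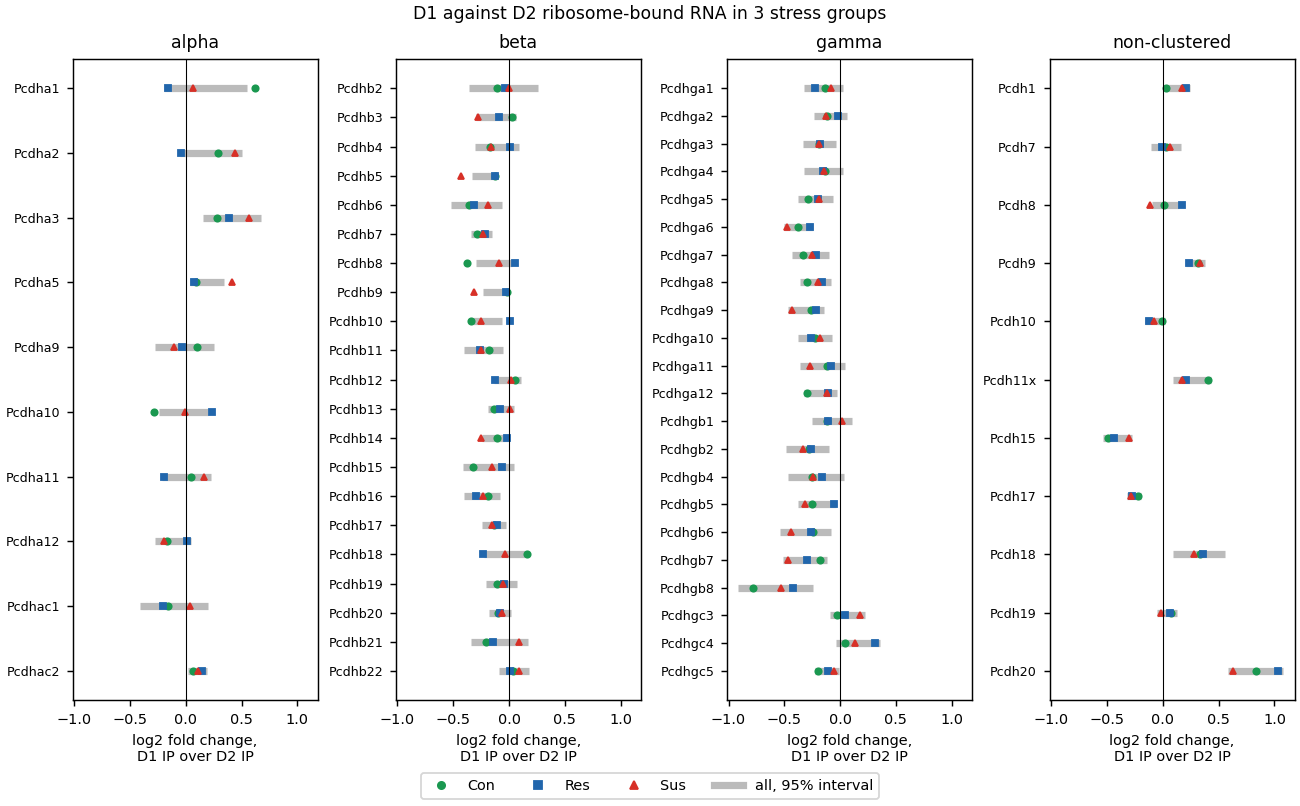
Log2 fold change of D1 IP over D2 IP in the Con, Res and Sus groups for each protocadherin tested, with the approximate 95% interval of the comparison over all stress groups in grey. The 19 gamma A and B genes have a negative value over all groups, under each scaling tried, and Pcdh20 lies at 0.83, 1.04 and 0.63.

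Of the 14 cluster chromatin regulators tested in IP, 10 were lower in D1 and 0 higher at an adjusted p under 0.05, which 21.3% of all genes passed as lower and 19.6% as higher, with Nipbl at -0.515, Smc3, a cohesin subunit, at -0.241 and Ctcf at -0.157. Library size scaling gave the same 0 and 10. Of 19 signalling partners 5 were higher and 2 lower, Ptk2 at 0.211 among the former and Ptk2b at -0.182 among the latter. Of 8 atypical cadherins 2 were higher and 5 lower, with Fjx1, a Golgi kinase of the Fat and Dachsous pathway, at 1.15 and Celsr1 at -0.601.

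Whole-tissue RNA gave no detectable protocadherin difference between the Cre lines. In the 18 inputs 0 protocadherins passed an adjusted p of 0.05 in edgeR, and 0 in DESeq2, where 0.0202% of the 14820 genes tested passed in edgeR. At an unadjusted p under 0.05 there were 4, Pcdhga8, Pcdha3, Pcdhga4 and Pcdhga6, beside 5.20% of all genes, and their lowest edgeR adjusted p was 0.600. Every one of the 64 intervals of the difference lay within a 2-fold change.

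Stress was not followed by a detectable change of any protocadherin. In no comparison of Sus, Res and Con, in D1 IP, D2 IP or input, did a member pass an adjusted p of 0.05 in edgeR, and none exceeded a 1.5-fold difference. Of all genes 0.00703% passed the adjusted p in D1 Res against Con, and 0.00% in each other stress comparison. Counts at an unadjusted p under 0.05 are given with the share of all genes at that limit. In D1 IP there were 4 between Sus and Con (5.34%), 0 between Res and Con (2.11%) and 1 between Sus and Res (4.23%). In D2 IP there were 1 (3.68%), 1 (3.02%) and 0 (1.66%) in that order, and in the inputs 2 (4.47%), 2 (3.23%) and 5 (5.54%). These counts moved with single libraries. The D1 Sus against Con count ran from 2 (without D1 Sus IP replicate 3) to 6 (without D1 Sus IP replicate 2 or D2 Con IP replicate 1), and that of Sus against Res from 0 (each of 14 libraries) to 4 (without D1 Res IP replicate 2), while Res against Con reached 2 without D1 Res IP replicate 3. In D2 IP, Sus against Con ran from 0 (without D2 Con IP replicate 5) to 3 (without D2 Sus IP replicate 5), Res against Con from 0 (without D2 Con IP replicate 4 or D2 Res IP replicate 1) to 4 (without D2 Res IP replicate 5), and Sus against Res reached 3 without D2 Res IP replicate 4. In the inputs Sus against Con ran from 0 (without D1 Sus input replicate 1 or D2 Con input replicate 1 or 2) to 3, and Res against Con from 0 (without D1 Con input replicate 1 or 2, D1 Res input replicate 1, D2 Con input replicate 1 or D2 Res input replicate 2) to 2. The input count of 5 was 0 without D2 Sus input replicate 1 and 10 without D2 Sus input replicate 3. The 4 members in D1 Sus against Con were Pcdh15 at 0.31, Pcdh1 at 0.21, Pcdhb5 at -0.24 and Pcdhb14 at -0.23, each with an edgeR adjusted p of at least 0.846. The median SE was 0.145 in that comparison. The approximate 95% interval stayed within a 2-fold change for 63 of the 64 members in D1 Sus against Con and in D1 Res against Con, and for all 64 in each other stress comparison.

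The interaction term, which compares the stress effect in D1 IP with that in D2 IP, found 0 members at an adjusted p of 0.05 for Sus against Con, Res against Con and Sus against Res, beside 0.00% of all genes. At an unadjusted p under 0.05 there were 2, 1 and 2 members, against 1.82%, 2.36% and 2.03% of all genes. The D1 and D2 comparisons with Con each use their own control libraries, while Sus against Con and Res against Con within a line share theirs.

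The libraries labelled Sirt1-KO were compared with the 4 D1 Con IP libraries used above, in their separate table with its own normalization. The targeted gene came first. Sirt1, an NAD-dependent deacetylase, was at 13.1, 16.6, 14.8 and 14.4 CPM in D1 Con IP and at 15.2, 16.2, 13.2 and 10.2 CPM in the libraries labelled Sirt1-KO. The groups overlapped, and the log2 fold change was -0.10 (edgeR adjusted p 0.768). A deletion of some exons can leave reads on the rest of the gene, and gene-level counts do not show which exons were read. Genotype, any difference in age and any batch between the tables cannot be told apart.

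Of the 64 protocadherins, 2 passed the fold limit, both gamma genes and both lower in the libraries labelled Sirt1-KO, where 0.749% of the 13626 genes tested passed (0.470% lower). Pcdhgb6 was at 22.9, 17.3, 15.9 and 23.5 CPM in D1 Con IP and at 12.7, 10.8, 11.8 and 10.4 CPM in the libraries labelled Sirt1-KO. Its log2 fold change was -0.80 (SE 0.132, edgeR adjusted p 0.0181). Pcdhga11 was at 18.05, 16.3, 14.4 and 16.8 CPM in D1 Con IP and at 8.91, 10.5, 5.65 and 4.56 CPM in the libraries labelled Sirt1-KO, a log2 fold change of -1.13 (SE 0.210, edgeR adjusted p 0.0284). For both genes all 4 control libraries were above all 4 labelled libraries. Pcdh1 passed the adjusted p alone, beside 1.66% of all genes, at 106, 97.5, 101 and 107 CPM against 113, 134, 132 and 135 CPM, again with no overlap, and its log2 fold change was 0.32 (SE 0.0655, edgeR adjusted p 0.0367). DESeq2 called 5 members where edgeR called 2, and over all genes it called 223 where edgeR called 102.

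These calls changed when single libraries were left out. Without D1 Con IP replicate 4 none of the members passed, and without D1 Con IP replicate 1 or 3, or replicate 3 or 4 of those labelled Sirt1-KO, 1 did. Over the 8 fits that each left out 1 library, Pcdhgb6 kept its call in 6, Pcdhga11 in 4 and Pcdh1 in 2. The largest values that did not pass were -1.18 for Pcdha1 (edgeR adjusted p 0.0609), 0.90 for Pcdhgb8 (0.0676) and 0.76 for Pcdhb2 (0.0833), and Pcdh10 was at -0.22 (0.0794). None of the cluster chromatin regulators, signalling partners or atypical cadherins passed an adjusted p of 0.05, in edgeR. Of the marker lists, 2 of 6 D1 markers were lower, 2 of 5 GABAergic interneuron markers higher and 1 of 4 cholinergic markers lower, the 5 cortical excitatory markers had a median of 0.89 with 0 passing, and the glial and endothelial lists had 0 passing. Their part in the differences was not tested.

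**Figure D5:**
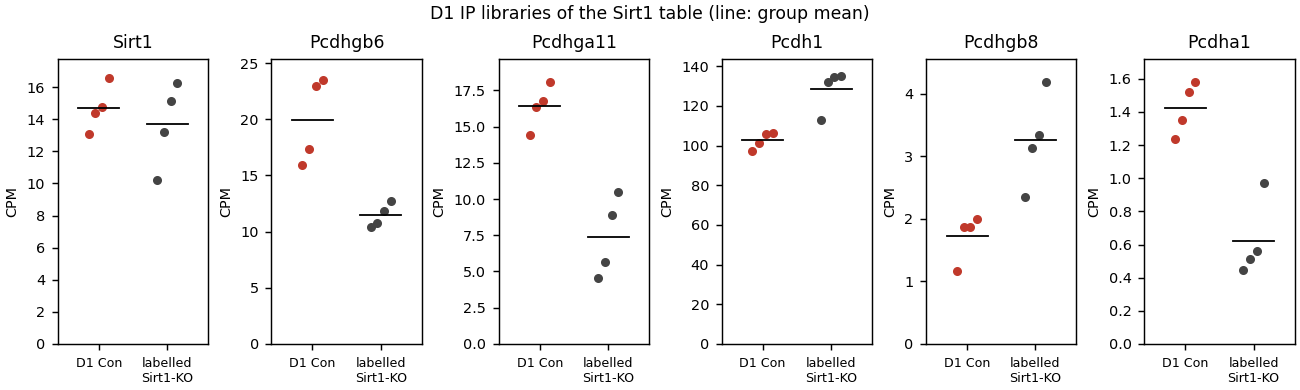
CPM in each of the 4 D1 Con IP libraries and the 4 libraries labelled Sirt1-KO for Sirt1 and 5 protocadherins. Sirt1 overlaps between the groups, at 13.1 to 16.6 and 10.2 to 16.2 CPM, while Pcdhgb6 and Pcdhga11 are lower and Pcdh1 higher in every labelled library.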

How the data were processed

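RNA of nucleus accumbens RiboTag IP and input samples was sequenced, and per the labels and methods the authors trimmed reads by cutadapt, aligned to mm10 by STAR and counted by HTSeq, with no versions given in the sources used here. The deposited values are raw read counts per gene symbol, and the strand setting, overlap mode and annotation are not given in the sources used here. Rows naming no gene held 18.02% to 28.3% of each IP library and 35.9% to 40.0% of each input, and were left out. Groups came from the labels. 2 columns that matched no sample were not used, and 1 symbol is not reported here. The 4 D1 Con libraries of the Sirt1 table were identical to those of the main table. No replicate pair agreed within sampling noise (chi-square 3.51 to 98.7 per gene over 76 pairs).

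Counts were fitted over all genes with edgeR 4.0.16 (R 4.3.3) by TMM scaling, filterByExpr (count of 10, total of 15), and quasi-likelihood tests with Benjamini-Hochberg adjustment. The 28 IP libraries, the 15 Con libraries, the 18 inputs and the 8 libraries of the Sirt1 table were fitted separately. The fold limit was 1.5. CPM are counts per 1e+06 gene reads after TMM scaling within a table. Gene positions came from GENCODE on GRCm38. DESeq2 1.42.0, other scalings and filters, a replicate block, other sets of libraries and leaving out each library were alternatives. Same-numbered IP and input were taken from their titles to be of the same pool, which the labels do not state. Their correlations (deviations from group means) were -0.193 to 0.506, 3 of 18 over 0.1. The main fit of IP against input had no term for the pool. Named genes were all non-clustered and C-type members, and in each comparison and class the 3 called members farthest from 0 in each direction. Members and gene lists were chosen with earlier results of these data known.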

Additional observations from a re-analysis of the deposited data

Results flagged for a closer look

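Within groups of 4 or 5 libraries, 11 of 133 sets of values had 1 library far from the others by Dixon's criterion, which chance gives in about 5% of sets. In D1 Con IP replicate 3, Pcdhac2 was 34.5 CPM (others 33.6 to 33.7) and the summed alpha genes without the C-type ones 32.5 CPM (26.2 to 27.1). In D1 Res IP replicate 3, Pcdh1 was 102 CPM (123 to 127) and Pcdh18 was 5.04 CPM (7.31 to 7.73). In D1 Sus IP replicate 5, Pcdh7 was 117 CPM (142 to 152). In D2 Res IP replicate 4, Pcdhac1 was 3.46 CPM (1.95 to 2.35). In D2 Sus IP replicate 1, Pcdh18 was 8.89 CPM (4.33 to 5.10) and Pcdh19 was 109 CPM (75.8 to 83.4). Among the libraries labelled Sirt1-KO, Pcdh1 was 113 CPM in replicate 1 (132 to 135), and replicate 5 had Pcdh18 at 6.97 CPM (3.89 to 4.30) and Pcdh7 at 96.1 CPM (130.04 to 137).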

How the results depend on the processing

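Counts of members called are given, at the fold limit for line, fraction and Sirt1 comparisons and at an unadjusted p under 0.05 for stress. With an adjusted p alone, D1 against D2 IP gave 28 over all groups, 6 in Con, 4 in Res and 10 in Sus in place of 1 each, D1 IP against input gave 26 in place of 16, and each stress comparison gave 0. In the fit with the replicate block, D1 against D2 IP in Sus gave 2, D2 IP gave 2 for Sus against Con, 2 for Res against Con and 1 for Sus against Res, and the inputs gave 1, 1 and 3 in the same order. D1 IP Sus against Res gave 0 in place of 1 under RLE size factors, with all genes of at least 1 count, with a mean of at least 50 counts and in DESeq2. Library size scaling gave 2 for D2 IP Sus against Con and Res against Con, and 1, 0 and 2 in the inputs. Input Res against Con gave 1 with all genes of at least 1 count and in DESeq2, and input Sus against Con gave 1 with a mean of at least 50 counts. Fits of only the groups compared gave 2 for D2 IP Res against Con and 1 for Sus against Res. For D1 IP against input, library size scaling gave 14. A mean of at least 50 counts gave 12, and all genes of at least 1 count gave 18. D2 IP against input gave 19, 19 and 29 in that order, in place of 27. Over all genes these settings called 5913, 4155 and 6800 in D1 and 6147, 4383 and 6958 in D2. D1 IP Sus against Con gave 5, not 4, with a mean of at least 50 counts, the replicate block or only the groups compared. DESeq2 gave 5 in place of 2 for the libraries labelled Sirt1-KO, and 223 in place of 102 over all genes. With all 46 libraries in 1 fit, the comparison of IP with input averaged Con, Res and Sus rather than using Con alone. Its counts at an adjusted p were 41 for D1 and 47 for D2, beside 26 and 40 in Con. Pcdh10 in D1 IP against input reversed to -0.0548 under library size scaling. Of the other values of single members under an alternative, 3185 kept direction and call and 418 lost the call. The causes were not tested.

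Leaving out each library gave 1 to 2 for D1 against D2 IP over all groups and in Con, 1 in Res and 0 to 3 in Sus. It gave 14 to 18 for D1 and 23 to 31 for D2 IP against input, 0 for the inputs of the lines, 0 to 2 for the libraries labelled Sirt1-KO and 0 for each interaction. For stress (Sus against Con, Res against Con, Sus against Res) it gave 2 to 6, 0 to 2 and 0 to 4 in D1 IP, 0 to 3, 0 to 4 and 0 to 3 in D2 IP, and 0 to 3, 0 to 2 and 0 to 10 in the inputs. Pairing same-numbered IP and input gave 17 and 24 members called in place of 16 and 27, and an edgeR adjusted p of 0.162 for Pcdha10 and 0.0503 for Pcdhb15 in D2. D1 and D2 IP samples, stress groups and inputs share only a number (correlations over 0.1 in 6 of 13, 7 of 27 and 2 of 9 pairs). Groups of 3 to 5 pools limit small differences.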
